A study of Mus musculus with 48 samples.

Results

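The genes described here carry thyroid hormone into astrocytes, activate it there or respond to it, and were measured in mouse astrocytes: Slco1c1, Dio2, Thra, Thrb, Klf9, Hr and Thrsp. They were found by symbol, and all 7 were listed in each of the 6 deposited tables, out of 24421 symbols per table. The series holds 48 bulk RNA-seq libraries in 15 groups. Astrocytes of cortex, hippocampus and olfactory bulb were profiled at postnatal day 1 (P1), P7 and P14, with 3 libraries per group and 4 for cortex at P14. Those libraries carry no genotype or treatment label.

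The other libraries came from P28 astrocytes labelled Gabbr1 control or Gabbr1 cKO. Gabbr1 codes for part of the metabotropic GABA receptor, and cKO denotes a conditional knockout. There were 4 control and 4 cKO libraries from cortex, 2 and 4 from hippocampus, and 3 and 3 from olfactory bulb. Tamoxifen is named as the treatment of every hippocampal and olfactory bulb library at P28, controls included. In cortex it is named for 2 controls and 1 cKO library, while the labels of the other 2 controls and 3 cKO libraries give no treatment. Whether the latter were treated is not known. The labelled cortical libraries also belong to a later round of deposit, so label and round cannot be told apart. The Cre driver, the isolation marker and the number of animals behind a library were not given in the sources used here. The p-values below therefore measure the spread between libraries, which may be technical.

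Thyroid hormone reaches the brain mainly as thyroxine, a prohormone. Transporters in the blood-brain barrier and in astrocyte membranes take it up, and the type 2 deiodinase of astrocytes removes an iodine to give triiodothyronine, the active form. Triiodothyronine binds the nuclear receptors encoded by Thra and Thrb, which pair with retinoid X receptors on DNA and switch target genes. Astrocytes are known as the main source of triiodothyronine for neurons and oligodendrocytes in the developing brain.

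Library totals ran from 1773226 to 15008466 reads assigned to genes. A normalized read count is a gene's reads divided by one factor per library. Differences are given on the scale of log2(normalized read count + 1), with a standard error (SE) and with p adjusted by the Benjamini-Hochberg method over all genes tested in limma, and a gene was called at an adjusted p under 0.05. Astrocyte markers were abundant in every library: the summed level of 11 markers was 5060 or more. It rose with age, from 21367 to 28254 at P1 to 498126 to 556451 at P14 in cortex, from 13834 to 15920 to 427908 to 462044 in hippocampus, and from 5060 to 7176 to 124799 to 141906 in olfactory bulb. The summed level of 12 neuronal markers fell over the same ages, in olfactory bulb from 15194 to 18587 at P1 to 2019 to 3188 at P14, where it exceeded the astrocyte sum in every P1 library. Oligodendrocyte precursor markers were called higher and lower in 2 and 2 of 6 tested in cortex, 2 and 1 of 6 in hippocampus, and 4 and 0 of 6 in olfactory bulb. Pericyte markers were higher in 1 of 5, lower in 2 of 5 and higher in 4 of 5, and 1 of 1 blood marker was lower in cortex, with 0 tested in hippocampus and 0 of 1 called in olfactory bulb. Choroid plexus markers were lower in 2 of 3, higher in 3 of 4 and higher in 1 of 2. In bulk samples fewer cells of a type and less RNA per cell cannot be told apart, and the part of these marker changes in the results below was not tested.

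Between P1 and P14, Dio2, Thrb, Klf9 and Slco1c1 rose in all 3 regions, and Thra was lower in cortex and olfactory bulb. In cortex 6 of 7 genes tested were called higher and 1 lower, where 24.0% of all genes tested were called higher and 40.3% lower. In hippocampus 5 of 6 were called higher and none lower, against 21.0% and 28.5% of all genes, and Thra was not called. In olfactory bulb 4 of 5 were called higher and 1 lower, against 24.8% and 31.4%. The genes were chosen with earlier results of these data known, so the counts beside these shares are a description and carry no test. Over the tested genes the median log2 difference was 2.24, 1.93 and 3.24 by region in that order, beside -0.27, -0.29 and -0.24 over all genes tested and 2.57, 3.19 and 5.17 over the astrocyte markers. Hr in hippocampus and olfactory bulb and Thrsp in olfactory bulb had mean values under 10 and were not in these tests. From P1 to P14 the mean of Hr in hippocampus went from 5.46 to 8.54. In olfactory bulb the means went from 7.43 to 0.926 for Hr and from 9.39 to 4.82 for Thrsp. The counts and medians above leave these out.

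**Figure D1:**
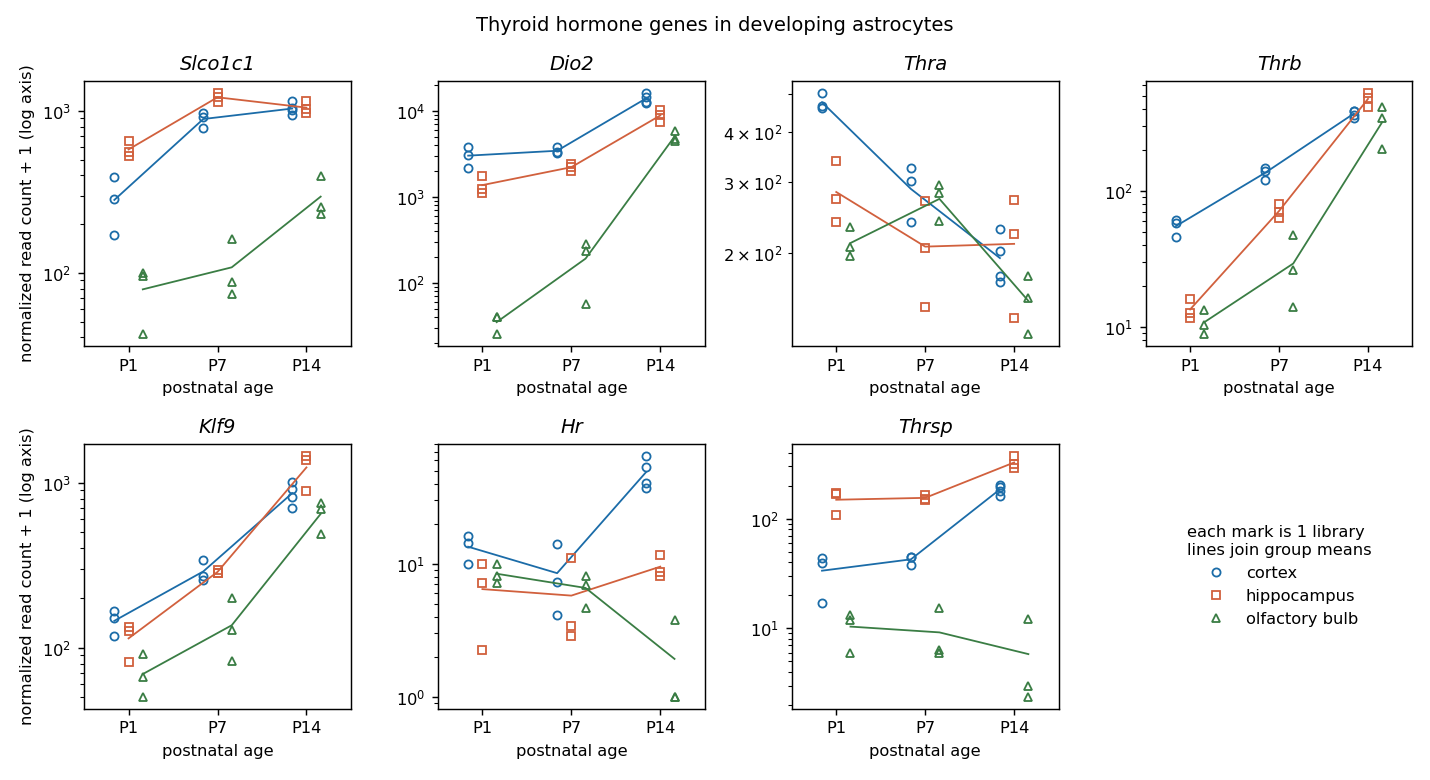
Normalized read count + 1 (log axis) of the 7 genes at P1, P7 and P14; each mark is 1 library and lines join group means, with the regions scaled separately. Dio2 in olfactory bulb covers the widest range, from 24.4 in a P1 library to 5742 in a P14 library, while Thra stays between 124 and 501 in all regions.

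The promoters of Dio2, Thrb and Klf9 are shown because these 3 genes rose together. Over the developmental libraries of a region (10 in cortex, 9 in each of the others), the correlation of their log2 values was between 0.91 and 0.99 for every pair, as a description of libraries that share the age course. The sequences come from RefSeq on GRCm38.p6 and run 5′ to 3′ on the gene's strand, with a motif in capitals where one was found. Each ends at the base before the RefSeq start site, or before an annotated exon that begins earlier within the window. The Thrb stretch lies inside the annotated gene, which begins at 17660261. For Dio2 the RefSeq start site, 90739038, lies outside the annotated gene, which ends at 90738438.
Dio2, chr12:90739039-90739288, minus strand: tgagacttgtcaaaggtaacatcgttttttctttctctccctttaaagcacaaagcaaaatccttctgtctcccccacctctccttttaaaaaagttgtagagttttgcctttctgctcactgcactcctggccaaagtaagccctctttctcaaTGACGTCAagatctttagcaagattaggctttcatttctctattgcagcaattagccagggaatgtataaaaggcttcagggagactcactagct
Thrb, chr14:17660710-17660891, plus strand: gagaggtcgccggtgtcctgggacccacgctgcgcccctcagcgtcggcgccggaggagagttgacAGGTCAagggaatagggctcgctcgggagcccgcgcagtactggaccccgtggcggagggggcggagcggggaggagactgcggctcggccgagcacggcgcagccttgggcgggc
Klf9, chr19:23140976-23141225, plus strand: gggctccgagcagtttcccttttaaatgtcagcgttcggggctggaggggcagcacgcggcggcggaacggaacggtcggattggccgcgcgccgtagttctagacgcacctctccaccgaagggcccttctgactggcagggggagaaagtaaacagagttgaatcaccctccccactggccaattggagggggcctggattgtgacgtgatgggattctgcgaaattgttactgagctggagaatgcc

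The 250 bases before each start site were searched for 3 motifs on both strands, including bases not printed where an annotated exon begins earlier. The capitals in Dio2 mark TGACGTCA, the cAMP response element, which starts 95 bases before the start site and occurs in 1.55% of all 32851 promoter windows. The capitals in Thrb mark AGGTCA, the hexamer that thyroid hormone receptors bind, which starts 184 bases before the start site and occurs in 14% of windows. The window of a second RefSeq start site of Thrb, which is not printed, held none of the motifs, and neither did the Klf9 window. The direct repeat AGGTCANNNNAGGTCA, which contains the hexamer in each arm, occurred in 0.0152% of windows and in none of the windows of these genes. RefSeq windows were matched for 5 of the 7 genes. A match of letters is a description and shows no binding.

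Slco1c1 encodes a thyroxine transporter of astrocytes, brain capillaries and choroid plexus (chr6:141524368-141570177 in GRCm38, plus strand). In cortex its called step was that from P1 to P7. The normalized read count was 171, 284 and 388 in the P1 libraries, 784, 965 and 922 in the P7 libraries, and 943, 1041, 1144 and 1006 in the P14 libraries. In hippocampus the values were 649, 524 and 559 at P1, 1211, 1288 and 1141 at P7, and 1020, 969 and 1152 at P14. In both regions the P1 group lay below both later groups, and the later groups overlapped. The step from P1 to P7 was a log2 difference of 1.73 (SE 0.21, adjusted p = 3.90e-05) in cortex and 1.07 (SE 0.13, adjusted p = 1.06e-04) in hippocampus. The step from P7 to P14 was 0.22 (95% interval -0.22 to 0.65, adjusted p = 0.39) and -0.21 (-0.49 to 0.06, adjusted p = 0.221). After quantile normalization the latter became -0.62 (adjusted p = 0.00485).

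In olfactory bulb the order of the steps was the other way round. Slco1c1 stood at 40.9, 99.1 and 94.3 at P1, 86.6, 162 and 73 at P7, and 231, 255 and 398 at P14, so that only the P14 group stood apart. Its P7 minus P1 difference was 0.47 (95% interval -0.39 to 1.32, adjusted p = 0.552), and P14 minus P7 was 1.50 (SE 0.39, adjusted p = 0.00891). Whether the regions differ in timing was not tested, since their tables were scaled separately. Endothelial cells also express Slco1c1, and 8 of 9 endothelial markers tested were called higher at P14 than at P1 in olfactory bulb. Their summed level over 11 markers was 62 to 87.2 at P1 and 221, 1158 and 1706 in P14 replicates 1, 2 and 3. At P7 the sum was 133 to 176, so that it was higher at P14 in every library, as Slco1c1 was, and its part in the rise was not tested. In cortex 2 of 10 endothelial markers were called higher and none lower, and in hippocampus 1 of 7 was called higher and 2 lower, with Cldn5, Tie1, Ly6c1 and Esam at 0 in all 3 P14 libraries.

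Dio2 encodes the type 2 deiodinase (chr12:90724552-90738438, minus strand). It was the most abundant of the 7 genes per kilobase of exon in cortex and hippocampus at every age, and in cortex at P14 it averaged 2384 per kb, beside 199 for Slco1c1, 180 for Klf9, 83.9 for Thrsp, 49.6 for Thrb, 41.8 for Thra and 6.95 for Hr. In olfactory bulb at P1 it averaged 5.83 per kb, below Thra at 45.6, Slco1c1 at 15.1 and Klf9 at 14.2. At P14 it led there too, with 859 per kb beside 134 for Klf9.

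Cortical Dio2 rose late. It was 2147, 3078 and 3773 at P1 and 3299, 3772 and 3185 at P7, which overlapped, and 12294, 15994, 12646 and 14522 at P14, where every library was above all earlier ones. The log2 difference was 0.22 (95% interval -0.14 to 0.59, adjusted p = 0.333) from P1 to P7 and 2.02 (SE 0.16, adjusted p = 5.30e-07) from P7 to P14.

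In hippocampus Dio2 was 1760, 1214 and 1117 at P1, 1976, 2242 and 2390 at P7, and 7331, 8942 and 10111 at P14, with no overlap between ages. The P7 minus P1 difference of 0.72 (SE 0.17, adjusted p = 0.0138) lost its call without P1 replicate 2 (adjusted p = 0.0562), P1 replicate 3 (0.0695) or P7 replicate 3 (0.0609). From P7 to P14 the difference was 1.99 (SE 0.17, adjusted p = 2.68e-05).

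Olfactory bulb Dio2 started near the bottom of the range and climbed at both steps. Its values were 24.4, 38.7 and 38.6 at P1, 232, 282 and 56.4 at P7, and 4741, 5742 and 4497 at P14. Means of 33.9 ± 8.26 (SD, n = 3) and 4993 ± 660 (n = 3) at P1 and P14 differed by 7.18 on the log2 scale (SE 0.48, adjusted p = 6.41e-07). The P7 minus P1 difference was 2.19 (SE 0.48, adjusted p = 0.0149), and it was the only call among the 5 genes tested there, where 7.59% of all genes tested were called higher and 2.98% lower. Leaving out 1 library gave 0 to 3 calls there. That call was lost without P1 replicate 1 (adjusted p = 0.0619), P7 replicate 1 (0.0752) or P7 replicate 2 (0.0726). The P7 library lowest in Dio2, replicate 3, also had the lowest astrocyte marker sum of its group, 10645 beside 15316 and 19472.

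**Figure D2:**
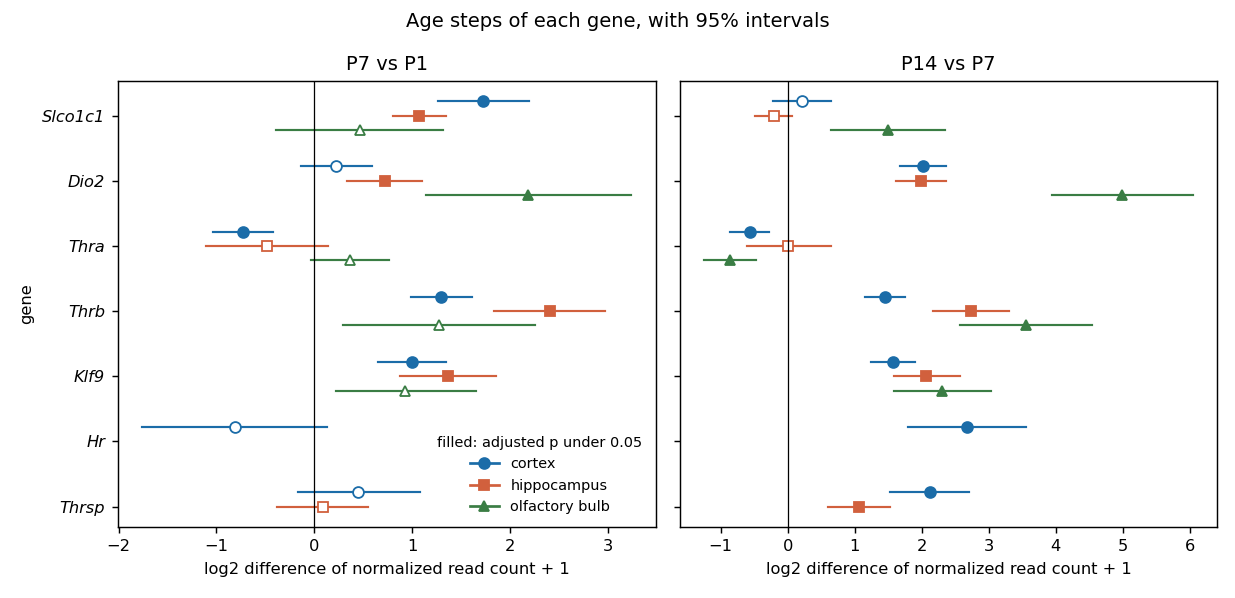
Log2 differences of P7 minus P1 (left) and P14 minus P7 (right) for each gene tested, by region, with 95% intervals; filled marks have an adjusted p under 0.05. Slco1c1 in cortex and hippocampus was called in the first step and not in the second, and Dio2 in olfactory bulb has the largest difference shown, 4.99 from P7 to P14.

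From P1 to P14 Thrb rose in all 3 regions, and Thra fell in cortex. In olfactory bulb Thra was called lower at P14 than at P1, a call that was lost under several alternatives given below, and all its P7 libraries, like those of Thrb, were above the P1 libraries. Thrb, whose receptor is the isoform best known for feedback and sensory development (chr14:17660261-18038090, plus strand), was 44.9, 59.9 and 57.2 at P1, 138, 118 and 146 at P7, and 382, 358, 386 and 342 at P14 in cortex. In hippocampus it was 15, 10.7 and 11.7, then 79.1, 61.9 and 69.1, then 482, 520 and 412. In both regions each age lay wholly above the one before. The log2 differences from P1 to P7 and from P7 to P14 were 1.30 (SE 0.14, adjusted p = 1.55e-05) and 1.45 (SE 0.14, adjusted p = 2.14e-06) in cortex. They were 2.41 (SE 0.26, adjusted p = 5.20e-05) and 2.73 (SE 0.26, adjusted p = 3.60e-05) in hippocampus.

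In olfactory bulb Thrb was 7.89, 12.3 and 9.38 at P1, 25.2, 46.5 and 13.1 at P7, and 201, 339 and 414 at P14. Groups of different age did not overlap, but the first step missed the threshold, with 1.28 (95% interval 0.29 to 2.26, adjusted p = 0.0992), while edgeR and DESeq2 on the recovered reads called it (adjusted p = 0.0452 and 0.00778). Without P7 replicate 3 limma called it too (1.72, adjusted p = 0.0255). The second step was 3.56 (SE 0.45, adjusted p = 1.02e-04).

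Thra, which encodes the receptor that predominates in most brain cells (chr11:98740638-98769006, plus strand), fell at both steps in cortex. It was 465, 501 and 459 at P1, 324, 237 and 302 at P7, and 201, 168, 174 and 228 at P14, with no overlap between ages. The differences were -0.73 (SE 0.14, adjusted p = 0.00153) and -0.57 (SE 0.13, adjusted p = 0.00315). In hippocampus the ages overlapped, with means of 283 ± 51.9, 206 ± 61.9 and 209 ± 67.7 (SD, n = 3 each) and a P14 minus P1 difference of -0.47 (95% interval -1.10 to 0.15, adjusted p = 0.191).

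Olfactory bulb Thra was 231, 195 and 205 at P1, 281, 239 and 295 at P7, and 153, 174 and 124 at P14. All P7 libraries were above the P1 libraries, by 0.37 (95% interval -0.03 to 0.76, adjusted p = 0.249), and all above the P14 libraries, by a called difference of -0.86 for P14 minus P7 (SE 0.18, adjusted p = 0.00246). The P14 minus P1 difference was -0.49 (SE 0.18, adjusted p = 0.0349), and edgeR and DESeq2 did not call it (adjusted p = 0.0823 and 0.0552). Nor was it called with only those 2 ages in the fit (adjusted p = 0.0629). The call was also lost when P1 replicate 1, 2 or 3 or P14 replicate 3 was left out, with an adjusted p of 0.0615 to 0.129.

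The gene Nr1d1 lies on the opposite strand and shares 263 exon bases with Thra, and whether reads were counted by strand is not given in the sources used here, so reads from that stretch cannot be assigned to one gene. Nr1d1, a circadian repressor, rose from P1 to P14 in all 3 regions, by 2.36 (SE 0.12, adjusted p = 2.44e-09) in cortex, 3.17 (SE 0.28, adjusted p = 2.77e-06) in hippocampus and 2.26 (SE 0.33, adjusted p = 1.75e-04) in olfactory bulb. From P1 to P14 its direction was opposite to that of Thra in cortex and olfactory bulb. In olfactory bulb, however, both genes were higher in every P7 library than in every P1 library, and neither difference was called. Nr1d1 differed there by 0.78 (SE 0.33, adjusted p = 0.174) and Thra by 0.37 (adjusted p = 0.249). The part of shared reads in that Thra difference was not tested. Dio2 shares 100 exon bases with the opposite-strand gene Gm26512.

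Because Thrb and Thra are read from the same library, their ratio does not depend on the library's scaling. Per kilobase of exon, Thrb stood at 0.0708 ± 0.00929 (SD, n = 3) of Thra at P1 in cortex, 0.292 ± 0.023 (n = 3) at P7 and 1.21 ± 0.201 (n = 4) at P14. The ratio went from 0.0286 ± 0.00998 to 0.23 ± 0.0966 and 1.49 ± 0.387 in hippocampus (n = 3 each). In olfactory bulb it was 0.0297 ± 0.00911 at P1 and 0.0682 ± 0.0481 at P7, which overlapped, and 1.37 ± 0.649 at P14 (n = 3 each). Thra was thus the higher of the pair per kilobase in all P1 and P7 libraries. At P14 the ratio was above 1 in all but 2 libraries, cortex replicate 4 at 0.933 and olfactory bulb replicate 1 at 0.818.

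**Figure D3:**
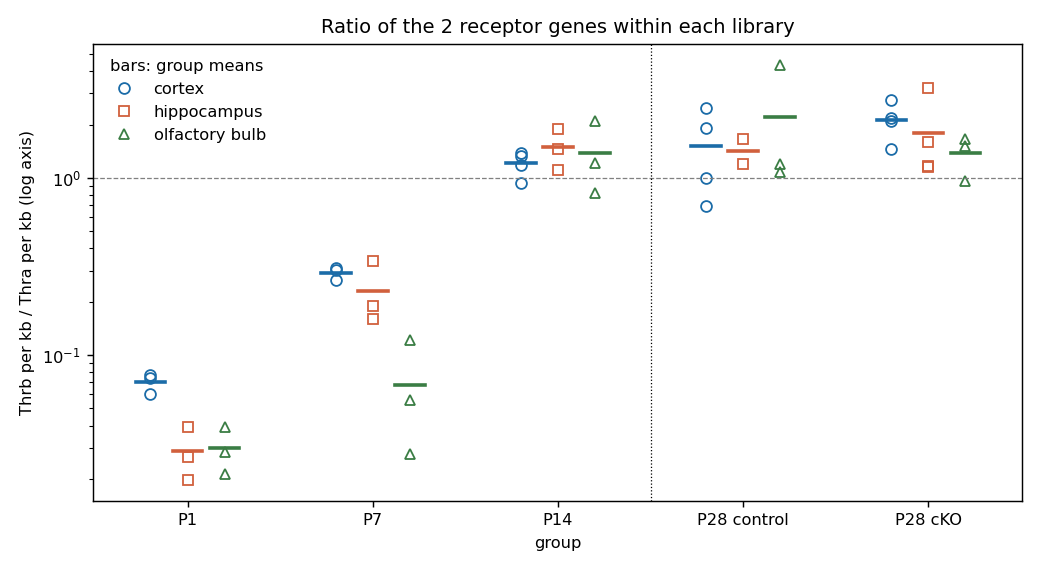
Ratio of Thrb to Thra, each per kilobase of exon, within each library (log axis; bars are group means; the dashed line marks equal levels; the dotted line separates the developmental from the P28 tables). All P1 and P7 libraries lie below 1, between 0.0197 and 0.34, and P14 libraries lie between 0.818 and 2.09.

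Among the responsive genes, Klf9 rose at both steps in cortex and hippocampus and at the second step in olfactory bulb. Klf9 encodes a zinc finger transcription factor and is a well known direct target of the thyroid hormone receptors (chr19:23141226-23168134, plus strand). In cortex it was 117, 166 and 151 at P1, 272, 257 and 339 at P7, and 923, 706, 814 and 1015 at P14. In hippocampus it was 125, 133 and 81.1, then 296, 282 and 284, then 890, 1369 and 1458. No 2 ages overlapped in either region. The P14 minus P1 difference was 2.57 (SE 0.15, adjusted p = 8.45e-09) in cortex and 3.44 (SE 0.23, adjusted p = 2.84e-07) in hippocampus, and both of its steps were called in both regions.

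In olfactory bulb Klf9 was 49.5, 90.3 and 65.1 at P1, 199, 127 and 81.9 at P7, and 692, 492 and 758 at P14. P1 and P7 overlapped, with a difference of 0.93 (95% interval 0.22 to 1.65, adjusted p = 0.0964), and DESeq2 called it (adjusted p = 0.0233), as did limma without P7 replicate 3 (1.25, adjusted p = 0.0267). P14 minus P7 was 2.31 (SE 0.33, adjusted p = 2.08e-04). As with Dio2 and Thrb, P7 replicate 3 was the lowest of its group.

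Hr encodes hairless, a nuclear corepressor that binds the thyroid hormone receptors and is itself induced by the hormone in brain (chr14:70552212-70573548, plus strand). It was the least abundant of the 7 genes per kilobase in cortex. Its cortical values were 15.1, 13.3 and 8.98 at P1, 6.35, 3.09 and 13.1 at P7, and 39.7, 64.1, 36 and 52.4 at P14. P1 and P7 overlapped, with a difference of -0.81 (95% interval -1.76 to 0.13), which without P7 replicate 3 was called at -1.27 (adjusted p = 0.0384). All P14 libraries were higher, by 2.67 over P7 (SE 0.41, adjusted p = 1.41e-04) and 1.86 over P1 (SE 0.41, adjusted p = 0.00131).

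In the other regions Hr rested on few reads. In hippocampus its libraries held 2 to 25 reads at P1, 2 to 16 at P7 and 4 to 10 at P14, and the ages overlapped. In olfactory bulb the 3 P1 libraries held 52 reads in all and the 3 P14 libraries 2, which were found in 1 library, the others being at 0. Scaled by the library factors, the P14 level was 0.136 of the P1 level, with an exact 95% interval of 0.016 to 0.515 that covers counting error only. With no filter on low values, limma gave a P14 minus P1 difference of -2.42 (adjusted p = 0.00844), which depends on the pseudocount.

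Thrsp, also called Spot 14, is a hormone-induced regulator of lipid synthesis best known in liver (chr7:97412938-97417730, minus strand). In cortex it was 16.2, 38.8 and 42.6 at P1, 43.9, 44.1 and 36.7 at P7, and 202, 179, 160 and 194 at P14. In hippocampus it was 172, 106 and 165, then 151, 163 and 147, then 286, 313 and 373. In both regions the first 2 ages overlapped and P14 stood above them. P14 minus P7 was 2.12 (SE 0.27, adjusted p = 3.22e-05) in cortex and 1.06 (SE 0.21, adjusted p = 0.0034) in hippocampus, while P7 minus P1 was 0.45 (95% interval -0.17 to 1.08) and 0.09 (-0.38 to 0.55). Olfactory bulb libraries held 14 to 25 reads of Thrsp at P1 and 1 to 8 at P14, and the normalized values overlapped.

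Read by steps, 3 of 7 genes were called higher and 1 lower from P1 to P7 in cortex, where 15.6% of all genes tested were higher and 18.1% lower. In hippocampus 4 of 6 were higher and none lower, against 11.2% and 6.92%. From P7 to P14 the counts were 5 higher and 1 lower in cortex (18.6% and 31.3% of all genes), 4 higher and 0 lower in hippocampus (12.5% and 17.7%), and 4 higher and 1 lower in olfactory bulb (20.4% and 26.6%). The share of all cortical genes called higher or lower depends on the scaling: with TMM scaling, P14 against P1 gave 3801 higher and 3655 lower in place of 2843 and 4765, P14 against P7 gave 3034 and 2718 in place of 2197 and 3696, and P7 against P1 gave 2165 and 1668 in place of 1850 and 2135. The 7 genes kept their direction in those 3 cortical comparisons under it.

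The genes whose pattern was most like each of the 5 genes tested in all regions were ranked among 10442 genes by the lowest of the 3 within-region correlations of log2 values. Dio2 was nearest to Chst2, Aldoc and Clmn, with lowest correlations of 0.976, 0.976 and 0.975. Thrb was nearest to Glul, Acsl6 and Slc1a2 (0.988, 0.988 and 0.986), and Klf9 to Itm2b, Slc1a2 and Glul (0.975, 0.973 and 0.971). Aldoc and Slc1a2 are astrocyte markers of the list above, and Glul encodes glutamine synthetase. Slco1c1 was nearest to Ddhd1, Myo10 and Cd63 (0.932, 0.909 and 0.909). Thra was nearest to Mapt, a neuronal microtubule protein gene, and to Cers4 and Map3k13 (0.895, 0.856 and 0.810). These values describe libraries that share ages and scaling and carry no test.

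Other genes of the pathway were taken from 4 lists. Of 11 transporters and carriers, 8, 8 and 6 were tested by region (cortex, hippocampus, olfactory bulb), and 3, 3 and 3 were called higher from P1 to P14, where 24.0%, 21.0% and 24.8% of all genes tested were. In hippocampus 2 of 8 were lower, against 28.5% of all genes. Slco1a4, a capillary organic anion transporter, and Slc3a2, the heavy chain partner of the amino acid transporters that also carry thyroid hormone, rose in all 3 regions. Slc3a2 went from 171 ± 36.8 (SD, n = 3) to 601 ± 36.9 (n = 4) in cortex (log2 difference 1.83, SE 0.15, adjusted p = 2.57e-07), by 1.81 in hippocampus (SE 0.19, adjusted p = 1.34e-05) and by 0.86 in olfactory bulb (SE 0.25, adjusted p = 0.0127). Slco1a4 rose by 2.66, 3.20 and 6.60 (adjusted p = 0.034, 0.0115 and 2.13e-05), from means of 9.55 ± 12, 2.52 ± 2.97 and 0.597 ± 1.03 to 83.9 ± 87.4, 36.8 ± 40.3 and 177 ± 139 (SD; n = 3 each, and 4 for cortex at P14). The lowest of these P1 means lies near the value of 1 read, so its log2 difference depends on the pseudocount, and the endothelial values given for Slco1c1 apply to it too. The median log2 difference of this list was 0.76, 0.15 and 1.34, beside -0.27, -0.29 and -0.24 over all genes.

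Of 6 deiodinases and deiodinase factors, 4 were tested in each region, and none was called higher from P1 to P14, while 3, 1 and 1 were called lower, where 40.3%, 28.5% and 31.4% of all genes tested were. Usp33, which encodes a deubiquitinase that reactivates the type 2 deiodinase, was lower in all 3 regions. Its log2 differences were -0.90 (SE 0.13, adjusted p = 3.88e-05) in cortex, -1.05 (SE 0.20, adjusted p = 0.00107) in hippocampus and -0.70 (SE 0.18, adjusted p = 0.00733) in olfactory bulb. Dio1 and Dio3, the genes of the other deiodinases, did not reach a mean value of 10 in any of the 3 tables. The median difference of the list was -0.78, -0.31 and -0.58, beside -0.27, -0.29 and -0.24 over all genes.

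Of 15 receptor partners and cofactors, 15, 14 and 14 were tested, and 1 was called higher in each region, with 7, 4 and 8 lower. The shares of all genes tested that were lower, 40.3%, 28.5% and 31.4%, are near those of the list in cortex and hippocampus. The gene that rose was the coactivator Ncoa1 in each, by 0.46 (SE 0.08, adjusted p = 1.63e-04), 0.41 (SE 0.13, adjusted p = 0.0206) and 0.44 (SE 0.14, adjusted p = 0.0208). Crebbp, an acetyltransferase coactivator, fell by 0.45, 0.52 and 0.95 (adjusted p = 8.44e-05, 0.00573 and 6.64e-05). Gps2, a subunit of the corepressor complex, fell by 0.86, 1.66 and 1.55 (adjusted p = 0.00555, 0.023 and 0.00816). The median difference of the list was -0.31, -0.17 and -0.81, beside -0.27, -0.29 and -0.24 over all genes.

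Of 6 other responsive genes, 4 were tested in each region, with 2, 3 and 2 called higher and 1, 0 and 1 lower from P1 to P14, against the same shares of all genes. Me1, the lipogenic malic enzyme, rose from 429 ± 46.9 (SD, n = 3) to 1131 ± 15 (n = 4) in cortex, a difference of 1.40 (SE 0.09, adjusted p = 1.42e-08), and by 3.60 and 3.59 in hippocampus and olfactory bulb (adjusted p = 6.93e-08 and 4.72e-08). Mbp, the myelin basic protein gene, rose by 8.45, 5.35 and 3.34 (adjusted p = 6.80e-12, 5.33e-07 and 1.07e-06). Mature oligodendrocyte markers moved with it: 6 of 7, 3 of 3 and 4 of 4 tested were called higher, and their summed level in cortex was 289 to 374 at P1 and 4543 to 6004 at P14. Their part in the rise of Mbp was not tested.

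**Figure D4:**
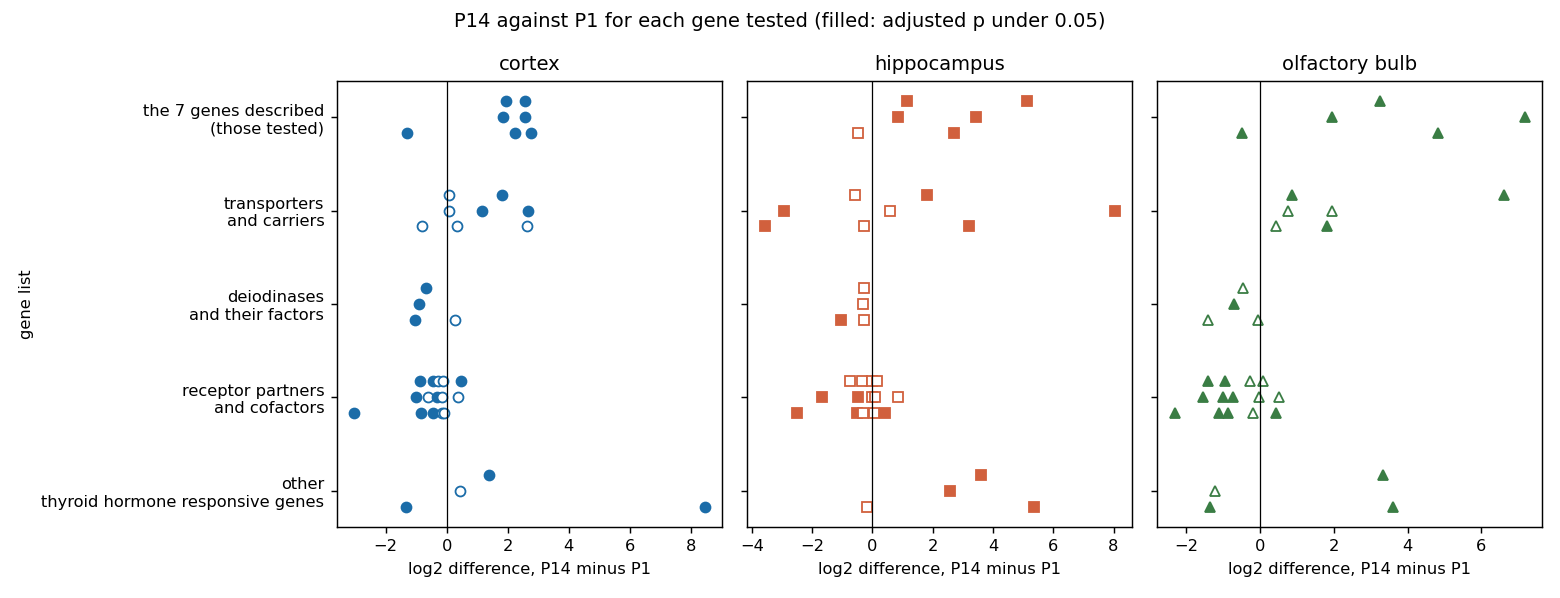
Log2 differences of P14 minus P1 for each gene tested, by list and region; each mark is 1 gene and filled marks have an adjusted p under 0.05. Receptor partners and cofactors have medians of -0.31, -0.17 and -0.81, where all genes tested have -0.27, -0.29 and -0.24. Of the genes described that were tested, only Thra lies below 0 in each region. Hr in hippocampus and olfactory bulb and Thrsp in olfactory bulb were not tested and are not shown. In olfactory bulb both had lower means at P14 than at P1.

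At P28 the genotype labels were first checked on the targeted gene. Gabbr1 was lower in every cKO library than in every control of its region. The means were 133 ± 55.7 against 1440 ± 475 in cortex (SD, n = 4 each), 239 ± 105 (n = 4) against 802 ± 31.1 (n = 2) in hippocampus, and 80.5 ± 18.1 against 230 ± 76 (n = 3 each) in olfactory bulb. The difference was called in cortex (log2 difference -3.45, SE 0.29, adjusted p = 4.40e-05), and not in hippocampus (-1.84, SE 0.39, adjusted p = 0.936) or olfactory bulb (-1.48, SE 0.33, adjusted p = 0.877). The share of all genes called lower was 0.00982% for cortex and 0% for both other regions (none was called higher), and at an unadjusted p under 0.05 limma gave 221, 296 and 349 genes. With edgeR 1, 0 and 0 genes were called, and with DESeq2 1, 1 and 22.

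At P28, 2 libraries stood apart in the share of reads on Rn45s, the ribosomal RNA precursor. This share was 0.594% in hippocampus cKO replicate 2 and 0.476% in olfactory bulb control replicate 2, beside 27.0% to 38.0% in the other 18. In the hippocampal library the astrocyte marker sum was 379500, beside 127476 to 246689 in the other cKO libraries, and the mature oligodendrocyte sum was 16264, beside 2884 to 11298. Differences in these regions are given below with and without the library concerned.

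None of the genes tested (7 in cortex, 7 in hippocampus, 6 in olfactory bulb) was called between genotypes by limma, edgeR or DESeq2, and none had an unadjusted p under 0.05 in limma. The lowest was 0.0565, for Slco1c1 in olfactory bulb. The median log2 difference of cKO minus control over the genes tested was 0.17, 0.30 and 0.28, beside 0.00, -0.04 and 0.02 over all genes. The intervals leave room for sizeable differences: in hippocampus, with 2 controls, that of Hr ran from -1.35 to 2.95 and that of Dio2 from -1.08 to 1.68.

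**Figure D5:**
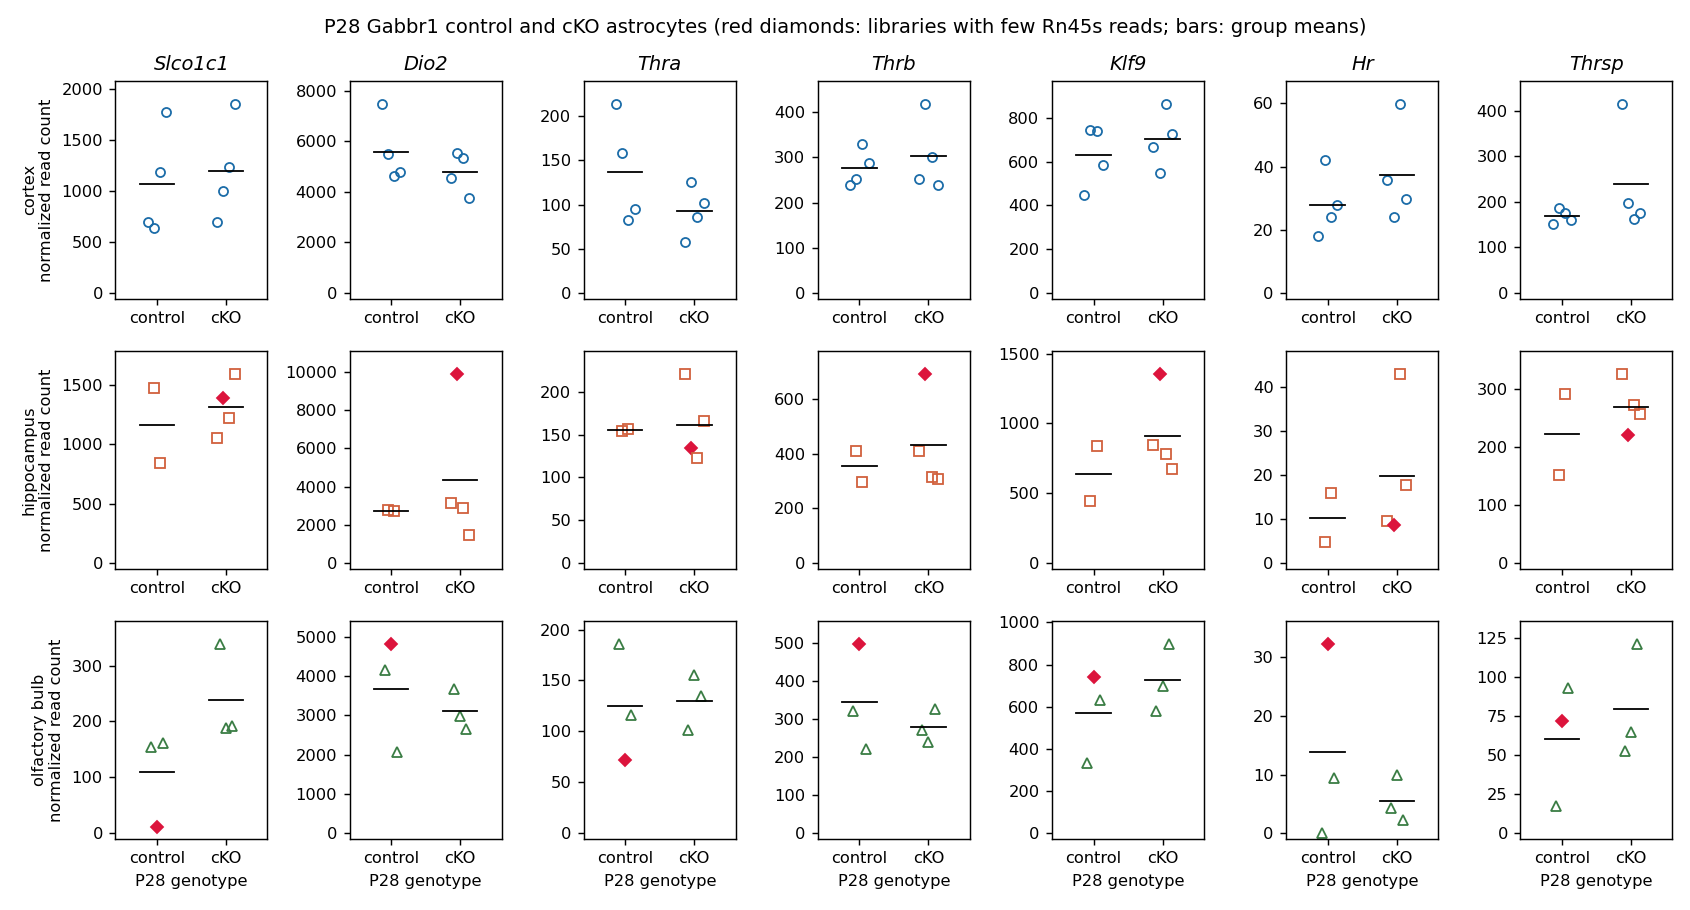
Normalized read count of the 7 genes in P28 control and cKO libraries of cortex (top), hippocampus (middle) and olfactory bulb (bottom); each mark is 1 library, bars are group means, and red diamonds are the 2 libraries with few Rn45s reads. The hippocampal red diamond is the highest of its group for Dio2 (9889), Thrb (693) and Klf9 (1355), and the lowest for Hr (8.67) and Thrsp (221). The olfactory bulb one is the lowest for Slco1c1 (10.2) and Thra (71.5). It is the highest of its group for Dio2 (4822), Thrb (499), Klf9 (740) and Hr (32.3).

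Slco1c1 in olfactory bulb was 155, 10.2 and 161 in controls and 339, 188 and 191 in cKO, so every cKO library was above every control, as for 5.30% of all genes tested. The log2 difference was 1.82 (95% interval -0.06 to 3.69, adjusted p = 0.877). Without control replicate 2, the library at 10.2, it was 0.54 (adjusted p = 0.999). The summed endothelial level of controls was 224, 186 and 431, below that of every cKO library, at 655, 509 and 461, and its part in the difference was not tested. In cortex Slco1c1 was 697, 634, 1190 and 1771 in controls and 697, 997, 1233 and 1856 in cKO, a difference of 0.19 (95% interval -0.50 to 0.89). Its 3 cortical libraries labelled with tamoxifen held 1190, 1771 and 1856, and the 5 without a treatment label 634 to 1233. The same 3 libraries had summed endothelial levels of 970, 729 and 908 beside 309 to 745, and microglial sums of 629 to 1724 beside 103 to 170. Their part in the Slco1c1 values was not tested.

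Hippocampal Slco1c1 was 1478 and 844 in controls and 1058, 1394, 1222 and 1596 in cKO, with a difference of 0.22 (95% interval -0.48 to 0.92), or 0.19 without cKO replicate 2. Choroid plexus, which also expresses Slco1c1, was visible in these libraries: the summed level of its 8 markers came to 14558 and 8227 for controls and 2574 to 9356 for cKO, with Tmem212 at 0 in both controls. Its part in the Slco1c1 values was not tested.

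Dio2 at P28 was 7493, 5486, 4613 and 4776 in cortical controls and 4568, 5539, 5357 and 3752 in cKO, a difference of -0.21 (95% interval -0.65 to 0.23). It was -0.32 within the libraries with no treatment label and -0.32 within those labelled with tamoxifen. In hippocampus it was 2768 and 2710 in controls and 3115, 9889, 2890 and 1453 in cKO, and the difference turned from 0.30 (adjusted p = 0.952) to -0.22 (adjusted p = 0.913) without cKO replicate 2. Olfactory bulb values of 4153, 4822 and 2074 in controls and 3668, 2985 and 2649 in cKO overlapped, with -0.17 (95% interval -0.85 to 0.51), and 0.07 without control replicate 2.

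For the receptors, cortical Thra was 214, 158, 82.2 and 94.7 in controls and 57.2, 125, 86.3 and 102 in cKO, with a difference of -0.51 (95% interval -1.23 to 0.21). Within the libraries with no treatment label it was -1.10, and within those labelled with tamoxifen, with 1 cKO library, 0.20. With the round of deposit as a covariate, which splits the cortical libraries just as that label does, it was -0.64 (adjusted p = 0.779). Thra differed by 0.02 in hippocampus (95% interval -0.76 to 0.80), or 0.09 without cKO replicate 2, and by 0.15 in olfactory bulb (-0.70 to 1.00), where it was -0.19 without control replicate 2. Thrb differed by 0.10 in cortex (-0.37 to 0.57), 0.22 in hippocampus (-0.62 to 1.06) and -0.25 in olfactory bulb (-0.94 to 0.45). Without the libraries with few Rn45s reads the latter 2 were -0.04 and 0.05.

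The ratio of Thrb to Thra per kilobase was between 0.697 and 2.49 in cortical controls and 1.46 and 2.75 in cKO. In hippocampus it was 1.19 and 1.66 in controls and 1.15 to 3.22 in cKO, and in olfactory bulb 1.08 to 4.35 and 0.959 to 1.66. The highest value in each of the latter regions, 3.22 and 4.35, belonged to the library with few Rn45s reads, and the genotypes overlapped in every region.

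The responsive genes overlapped between genotypes as well. Klf9 differed by 0.17 in cortex (95% interval -0.28 to 0.62), 0.53 in hippocampus (-0.29 to 1.36) and 0.41 in olfactory bulb (-0.29 to 1.11). Without the libraries with few Rn45s reads the hippocampal and olfactory bulb values were 0.32 and 0.64. Thrsp differed by 0.39 (-0.20 to 0.98), 0.34 (-0.43 to 1.11) and 0.60 (-0.75 to 1.95), and in cortex it was 152, 187, 175 and 160 in controls and 415, 198, 163 and 176 in cKO. Without cKO replicate 1, at 415, the cortical difference was 0.09, and without the libraries with few Rn45s reads the others were 0.43 and 0.87. Hr differed by 0.39 (-0.52 to 1.31) in cortex and 0.80 in hippocampus, or 1.07 without cKO replicate 2, and its olfactory bulb libraries held 0 to 19 reads in controls and 3 to 10 in cKO. Of the 29 control reads, 19 came from the library with few Rn45s reads. None of the genes on the 4 pathway lists was called between genotypes by limma.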

How the data were processed

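The signal values deposited by the authors are gene read counts divided by one factor per library, in 6 tables. FastQC, MultiQC, STAR 2.5.0a, DESeq2 1.20.0 and mm10 are named in the submitters' processing notes. The counting program, its strand setting and the annotation are not given in the sources used here. Low-input total RNA went into a Trio RNA-seq kit, per the labels' protocols. Dividing by the smallest step of each library gave whole reads for 100% of values (tolerance 0.01). In olfactory bulb P28 cKO replicate 2 the step is near 1 read, so wholeness is a weak check there.

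Genes with a table mean of at least 10 were tested with limma 3.58.1 (R 4.3.3) on log2(value + 1), with a mean-variance trend and, for development, all 3 ages of a region in one fit. Intervals are limma's 95% intervals. edgeR 4.0.16 and DESeq2 1.42.0 on recovered reads, other pseudocounts, filters and scalings, and each left-out library were alternatives. The fits were first tested on simulated data with known changes. The tables were scaled separately, so tests stay within a table. Replicate numbers follow accession order and pair nothing. Coordinates and exon lengths come from GENCODE on GRCm38.

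The 7 genes and all lists were chosen with earlier results of these data known, so their counts beside the shares of all genes carry no test. Named with values were the 7 genes, list genes called alike from P1 to P14 in all 3 regions, in opposite directions, or by genotype, the 3 genes of most similar pattern, the overlapping Nr1d1 and the targeted Gabbr1. From P1 to P14, 9 of 10, 5 of 6 and 4 of 5 microglia markers tested were called higher in cortex, hippocampus and olfactory bulb.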

Additional observations from a re-analysis of the deposited data

Results flagged for a closer look

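Thrsp in cortex P28 cKO replicate 1 was 415, beside 163 to 198 in the other 3 cKO libraries, a gap large for its group of 4 by Dixon's criterion. It was 1 of 28 gene and group pairs examined that way, and chance gives about 1 in 20.

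Between P1 and P7 the Thra groups did not overlap in cortex or in olfactory bulb, and the differences had opposite signs. The log2 difference was -0.73 in cortex, where it was called. It was 0.37 in olfactory bulb, where it was not called (95% interval -0.03 to 0.76, adjusted p = 0.249), so a rise there is not established. The share of all genes without overlap at this step is not given here. Hr also differed with opposite signs in these 2 regions at P14. In cortex it was higher than at P7 by 2.67 and than at P1 by 1.86 on the log2 scale. In olfactory bulb its level was 0.186 of the P7 level (exact 95% interval 0.0214 to 0.743) and 0.136 of the P1 level, from 2 reads at P14. The differences between regions were not tested.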

How the results depend on the processing

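No paired analysis was possible because replicate numbers only follow the accession order. In olfactory bulb P7 against P1 the number of genes called was 1 in the main analysis, 2 with edgeR, 3 with DESeq2, 3 with only the 2 ages compared, and 0 to 3 when 1 library was left out. The other 163 recounts of called genes stayed within 1.5 times the main count. They include those at P28, where the main count was 0 and few genes of the whole table were called, so those recounts had little room to move. Of the single-gene differences called in the main analysis, 574 recalculations kept direction and call, and the 13 that lost the call are Dio2 from P1 to P7 in hippocampus and olfactory bulb and Thra from P1 to P14 in olfactory bulb. A kept call could still change in size. With all libraries kept, the alternatives gave 1.22 to 2.20 for Dio2 from P7 to P14 in cortex, where the main value was 2.02. In hippocampus they gave 1.15 to 2.05, where it was 1.99.

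Signs turned in 20 recalculations, none of a called difference. Thra from P7 to P14 in hippocampus was -0.09 after quantile normalization, and Thra at P28 in hippocampus was 0.00 with TMM scaling. The others left out 1 library. In hippocampus this gave -0.14 to 0.21 for Thrsp from P1 to P7, and -0.22 to 0.29 for Thra from P7 to P14, with -0.20 and -0.06 between. For cortex at P28 it gave -0.05 to 0.48 for Slco1c1 and -0.07 to 0.20 for Thrb. For hippocampus at P28 it gave -0.18 to 0.62 for Slco1c1, -0.22 to 0.71 for Dio2, -0.14 to 0.14 for Thra, -0.04 to 0.45 for Thrb and -0.13 to 0.81 for Thrsp. For olfactory bulb at P28 it gave -0.54 to 0.07 for Dio2, -0.19 to 0.49 for Thra, -0.53 to 0.05 for Thrb and -0.13 to 1.05 for Thrsp. The cause was not tested.

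Depth limited Hr and Thrsp in olfactory bulb, where 3 reads equal 4.135 to 5.963 normalized reads in the P14 libraries.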
